A study of Homo sapiens with 20 samples.

Results

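The early response to the higher of the doxycycline doses was measured in B5/589 cells, which are immortalized mammary epithelial cells of human origin with a p53 transgene that doxycycline switches on. The 4 arrays of cells given 5 ng of doxycycline for 12 h were compared with the 4 arrays of cells given 0 ng and collected at 24 h, which together are 8 of the 20 arrays of the series. Both groups carry the transgene and grew in the same medium with serum and epidermal growth factor, so the control is the uninduced line and not a line without the transgene. The other 12 arrays are the 4 each of 3 ng at 12 h, 3 ng at 24 h and 5 ng at 24 h, and the series asks how p53 targets for arrest and for apoptosis respond when p53 is raised to different levels. The doses are labelled in ng with no volume, and the promoter of the transgene and whether the line is 1 clone are not given in the sources used here. Uninduced cells were measured at 24 h only, so the effect of doxycycline and that of 12 h less in culture cannot be told apart in any comparison with these arrays. Whether the 4 arrays of a group are from separate cultures is not in the labels. The p-values therefore reflect only how far these samples vary, which may be technical, and precision is limited by how few arrays there are.

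The protein p53 is a transcription factor that binds DNA as a tetramer and raises the transcription of genes that stop the cell cycle, start apoptosis, repair DNA or limit p53 itself. Many cell cycle genes are lowered indirectly. CDKN1A, the p21 inhibitor, blocks cyclin-dependent kinases, which keeps RB family proteins active, and complexes of these with E2F proteins repress genes for DNA synthesis and mitosis. Epithelial cells in which p53 is raised can stop dividing or die.

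Each array gave 1 log2 signal for each of 18417 genes with a named cluster of probes. The array medians lay between 4.94 and 5.28 in the uninduced group and between 4.70 and 5.27 at 5 ng and 12 h, and correlations between arrays of one group across all genes were 0.991 to 0.994 in these 2 groups. Because the arrays differ in brightness as deposited, values after quantile normalization, which gives all arrays the same distribution, stand beside the deposited ones. The median log2 difference of all genes was -0.18 as deposited, -0.02 after quantile normalization and -0.07 after centring every array at its median, and differences are to be read against these shifts. Induction of the transgene was not checked here, and 18 of the 20 genes of a panel of p53-related genes were measured. Of the epithelial markers, KRT5, KRT14, KRT8, KRT18 and EPCAM lay in the top quartile of signals on all 8 arrays. In the basal and myoepithelial list 6 of 10 markers did so, while MYLK, CNN1, TAGLN and OXTR lay between the top and bottom quartiles on every array. In the luminal list 5 of 16 markers lay in the top quartile on all 8 arrays and 4 in the bottom quartile (ESR1, PGR, ELF5 and KIT). In the mesenchymal list 3 of 17 lay in the top quartile on all 8, FN1 (12.43 to 12.89), SNAI2 (8.91 to 9.36) and CDH2 (7.62 to 9.11), and 5 in the bottom quartile, VIM, ZEB1, PDGFRA, DCN and LUM. In the immune and endothelial list CD68, a lysosomal protein, lay in the top quartile on all 8 (8.62 to 9.05), 6 of 13 lay in the bottom quartile on all 8, PTPRC, CD3E, MS4A1, CD163, LYZ and PECAM1, and CD14, NKG7, CDH5, KDR and CD34 lay between on every array.

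After 12 h with 5 ng, 2750 of 18417 genes (14.9%) passed the test, with 633 higher (3.44%) and 2117 lower (11.5%) than in uninduced cells (limma, Benjamini-Hochberg adjusted p under 0.05). As deposited 262 genes rose at least 2-fold (1.42%) and 287 fell at least 2-fold (1.56%), and after quantile normalization 369 rose (2%) and 141 fell (0.766%) by this much. The largest rise past the test was 36.6-fold and the largest fall 5.59-fold as deposited. The groups of 4 arrays did not overlap for 3719 genes (20.2%), with 693 higher (3.76%) and 3026 lower (16.4%) at 5 ng. After quantile normalization 4742 genes passed (25.7%), of which 2110 rose (11.5%) and 2632 fell (14.3%), and 4734 had groups that did not overlap (25.7%), so the share of rises among the calls was 44.5%, against 23.0% as deposited and 35.5% with centring. On both scales 633 genes rose and 1943 fell, and 0 were called in opposite directions. The number of calls fell to 1510 without replicate 1 of 5 ng at 12 h, and to 1540 and 1819 when replicates 4 and 1 of 0 ng were left out in turn. The falls moved most, from 2117 to 918, 901 and 1270 in these 3 fits, where 592, 639 and 549 genes rose, so the share of rises among the calls also depends on single arrays. These RNA values come from whole cultures, in which fewer cells of a kind and less RNA per cell cannot be told apart.

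**Figure D1:**
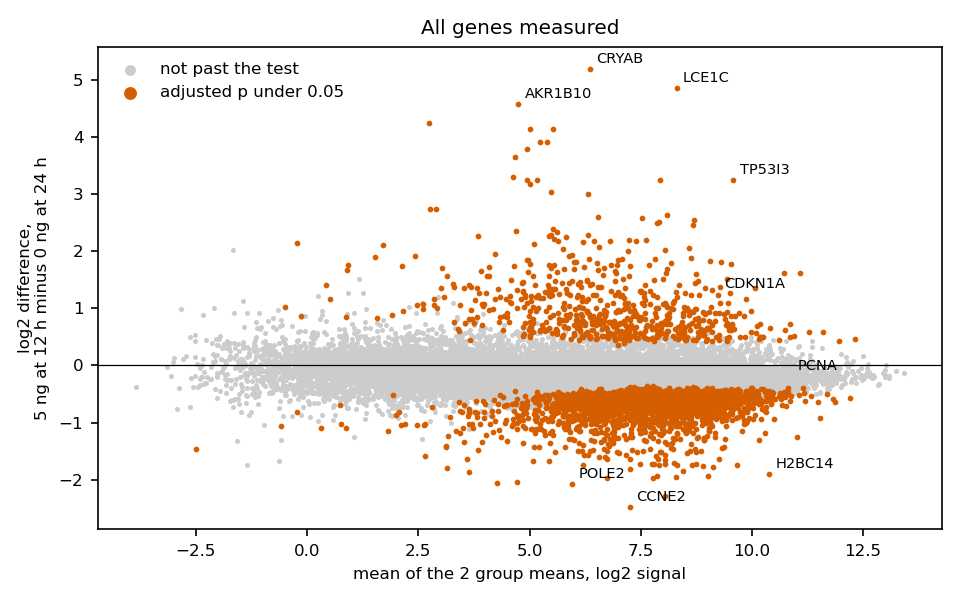
Log2 difference (5 ng at 12 h minus 0 ng at 24 h, as deposited) of each of 18417 genes against the mean of its group means on the log2 scale, with genes past an adjusted p of 0.05 in orange and all others in grey. CRYAB (5.19) and LCE1C (4.86) stand highest and CCNE2 (-2.48) is the lowest of the labelled genes, while PCNA lies near 0 (-0.18 as deposited, 0.02 after quantile normalization).

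Genes that p53 is known to bind and activate rose in each functional class. CDKN1A, which encodes the p21 inhibitor, read 8.58, 8.47, 8.43 and 8.99 on the 4 uninduced arrays and 9.79, 9.88, 9.81 and 9.94 at 5 ng and 12 h. All 4 induced arrays lay above the uninduced ones, by 1.24 ± 0.14 on average (log2 difference ± SE, 4 against 4 arrays), or 2.36-fold (limma, Benjamini-Hochberg adjusted p = 4.3e-06). SFN, the 14-3-3 sigma protein that holds cells before mitosis, read 11.16 to 11.57 uninduced and 11.83 to 11.97 induced, again without overlap, and rose 1.51-fold (0.59 ± 0.13, limma adjusted p = 0.0032). GADD45A, a growth arrest and DNA damage gene, read 10.67, 10.47, 10.16 and 10.95 against 10.78, 11.15, 10.99 and 11.03. Its groups overlapped and its difference of 0.42 ± 0.16 (95% interval 0.08 to 0.77) did not pass as deposited (limma adjusted p = 0.089), but it was called without replicate 4 of 0 ng (0.55) and after quantile normalization (0.65).

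Arrest targets rose in 7 of the 15 that were measured, and 1 fell, against 3.44% and 11.5% of all genes, and the list median was 0.42, where that of all genes was -0.18. The risen members with the largest changes besides CDKN1A were FBXW7 (1.23), the substrate receptor of a ubiquitin ligase that degrades cyclin E and MYC, and ZNF385A (1.20), a zinc finger protein that binds p53. The member that fell was GTSE1 (-0.83), which is itself expressed in G2 and binds p53. On the quantile-normalized values 10 of them rose and 1 fell, against 11.5% and 14.3% of all genes. The median was then 0.65 against -0.02 for all genes.

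Of the panel genes, the apoptosis target TP53I3 rose most. This gene, for a quinone oxidoreductase linked to reactive oxygen, read 8.05, 7.71, 7.90 and 8.18 uninduced and 11.08, 11.33, 11.22 and 11.20 induced. The gap between the groups was wider than either group's range, and TP53I3 rose by 3.25 ± 0.14, or 9.50-fold (limma adjusted p = 1.8e-12). APAF1, the scaffold of the apoptosome, read 7.70, 7.58, 7.12 and 7.80 against 9.44, 9.69, 9.67 and 9.62 and rose 4.16-fold (2.06 ± 0.16, limma adjusted p = 1.6e-08). FAS, a death receptor, read 8.20 to 8.86 uninduced and 9.44 to 9.70 induced and rose 2.04-fold (1.03 ± 0.16, limma adjusted p = 0.00018). TP53INP1, a nuclear cofactor of p53, rose 4.60-fold (2.20 ± 0.16), and PIDD1, a death domain protein that can activate caspase-2, rose 3.39-fold (1.76 ± 0.15).

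The best known mitochondrial effectors moved less. BAX, which opens the outer mitochondrial membrane, read 8.75, 8.75, 8.86 and 9.24 uninduced and 9.04, 9.43, 9.33 and 9.42 induced, so its groups overlapped. Its difference of 0.40 ± 0.15 did not pass as deposited (limma adjusted p = 0.076), and it passed without replicate 4 of 0 ng (0.52) and after quantile normalization (0.66). PMAIP1, the BH3-only protein NOXA, read 8.90, 8.40, 8.21 and 8.82 against 8.76, 8.88, 8.88 and 8.75 and differed by 0.24 ± 0.17 (limma adjusted p = 0.40), with a call after quantile normalization (0.50). BBC3, the BH3-only protein PUMA, read 5.82, 6.0, 5.98 and 6.22 against 5.66, 6.07, 6.04 and 6.41. Its difference was 0.04 ± 0.17 with a 95% interval from -0.32 to 0.40, it did not pass on either scale (0.18 after quantile normalization), and its sign turned without replicate 4 of 5 ng at 12 h (-0.08) or replicate 1 of 0 ng (-0.02). TNFRSF10B, a receptor for the death ligand TRAIL, rose by 0.49 ± 0.15 (limma adjusted p = 0.034). It was not called without replicate 1 (0.52), 2 (0.44) or 3 (0.48) of 5 ng at 12 h or replicate 1 (0.51), 2 (0.47) or 3 (0.38) of 0 ng, and it was called after quantile normalization (0.72).

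Across the 28 measured apoptosis targets 15 rose and 0 fell as deposited, with a median of 0.48, where 3.44% of all genes rose and 11.5% fell. After quantile normalization 24 rose and 0 fell, with a median of 0.67, where 11.5% of all genes rose and 14.3% fell. For 15 members the induced arrays all lay above the uninduced ones, as for 3.76% of all genes. In a fit to the 8 arrays alone 11 apoptosis targets rose, and with 1 array left out between 10 and 17 did, the lowest count being without replicate 2 of 0 ng. After quantile normalization the count without 1 array was 23 or 24.

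**Figure D2:**
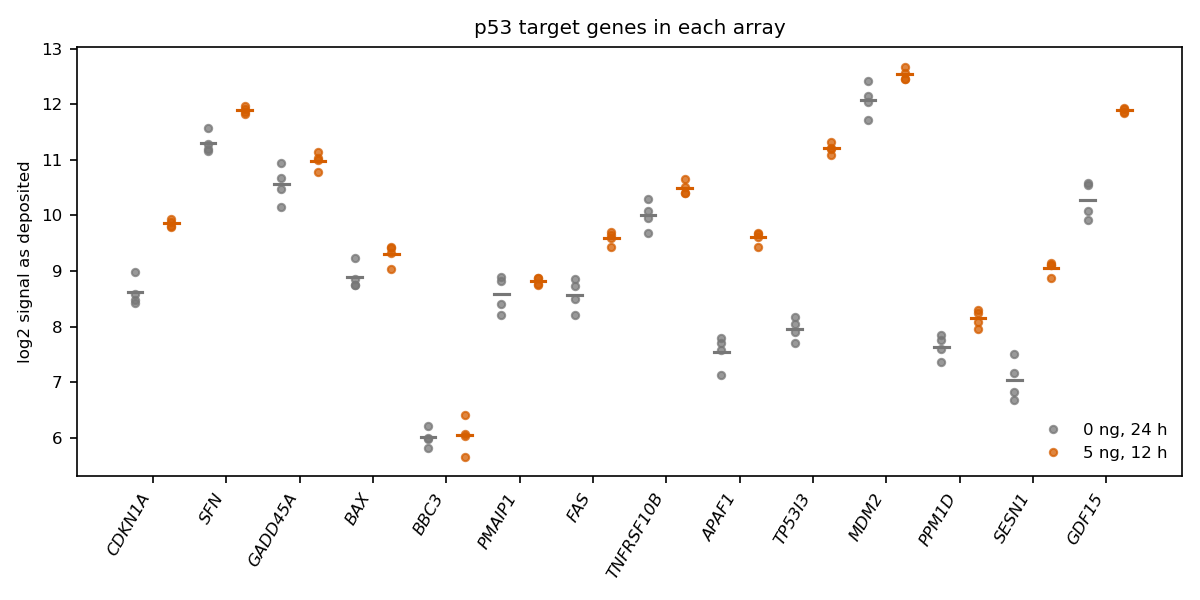
Log2 signal as deposited of the 14 measured p53 targets of the panel on each array, with 0 ng at 24 h in grey, 5 ng at 12 h in orange, points for single arrays and short lines for the means of 4 arrays. TP53I3, APAF1, SESN1 and GDF15 show wide gaps between the groups, while the groups of GADD45A, BAX, BBC3 and PMAIP1 overlap.

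Of the regulators that feed back on p53, TP73 and TRIM22 rose most. MDM2, the ubiquitin ligase that degrades p53 and is one of its own targets, read 12.15, 12.05, 11.72 and 12.42 uninduced and 12.45, 12.68, 12.46 and 12.57 induced. It rose 1.37-fold (0.46 ± 0.15, limma adjusted p = 0.039), and this call ended without any 1 of the 8 arrays other than replicate 4 of 0 ng, with log2 differences of 0.33 to 0.48. PPM1D, the phosphatase WIP1 that switches the damage response off, rose 1.42-fold (0.51 ± 0.17, limma adjusted p = 0.048), and its call ended without any 1 of the 8 arrays (0.42 to 0.58). Both calls held after quantile normalization, at 0.61 for MDM2 and 0.75 for PPM1D. TP73, the p53 family member p73, read 5.19 to 5.74 uninduced and 6.66 to 7.08 induced and rose 2.61-fold (1.38 ± 0.17, limma adjusted p = 9.7e-06), and TRIM22, a tripartite motif protein, rose by 0.92 ± 0.19. In all 4 of 9 feedback regulators rose and 0 fell, with a median of 0.10, where 3.44% of all genes rose and 11.5% fell. The count of rises was 2 in a fit to the 8 arrays alone, without any 1 array of 5 ng at 12 h or without replicate 1, 2 or 3 of 0 ng. After quantile normalization it was 4 with 1 fall, where 11.5% of all genes rose and 14.3% fell.

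Targets in repair and metabolism were led by SESN1 and GDF15. SESN1, a sestrin that lowers mTORC1 activity, read 7.17, 6.82, 6.67 and 7.50 uninduced and 8.87, 9.11, 9.14 and 9.11 induced, a rise of 2.02 ± 0.18 or 4.05-fold (limma adjusted p = 1.6e-07). GDF15, a secreted stress factor of the TGF-beta superfamily, read 9.92 to 10.58 against 11.84 to 11.94 and rose 3.05-fold (1.61 ± 0.15, limma adjusted p = 2.1e-07). Neither gene's groups overlapped. TP53I11 rose by 1.45, and POLH, the polymerase that copies past ultraviolet lesions, rose by 1.26. FANCC, a subunit of the Fanconi anaemia core complex, fell (-1.19) as the single fall among the 24 measured members, of which 11 rose, with a median of 0.33. After quantile normalization 15 of them rose and 3 fell, with a median of 0.58. The shares of all genes were 3.44% rises and 11.5% falls as deposited, and 11.5% rises and 14.3% falls after quantile normalization. On both scales the share of falls in the list was thus below that of all genes. Without replicate 3 of 0 ng the falls were 3 as deposited.

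Among 72 other genes reported as direct p53 targets, 36 rose and 0 fell, with a median of 0.45, where 3.44% of all genes rose and 11.5% fell. After quantile normalization 55 rose and 0 fell, with a median of 0.67, where 11.5% of all genes rose and 14.3% fell. The largest rises were those of DNAI3, an intermediate chain of axonemal dynein (3.25 ± 0.19), PLTP, a phospholipid transfer protein (2.54 ± 0.15), ABHD4, a lipase (2.49 ± 0.14), and PADI4, an enzyme that turns arginine to citrulline in histones (2.21 ± 0.18). The list holds genes known as direct targets from other cells. The rest of the 72 lay between -0.37 and 2.20.

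The largest rises of all were in genes outside the arrest and apoptosis classes. CRYAB, the small heat shock protein alpha-B crystallin, read 3.26, 3.52, 3.65 and 4.64 uninduced and 8.80, 8.66, 9.07 and 9.31 induced, and rose by 5.19 ± 0.26, or 36.6-fold (limma adjusted p = 1.7e-11). LCE1C, a late cornified envelope protein of skin, read 6.72, 5.42, 5.20 and 6.20 against 10.79, 10.62, 10.78 and 10.79 and rose 29.0-fold (4.86 ± 0.24). AKR1B10, an aldo-keto reductase, read 2.99, 1.93, 2.31 and 2.60 against 6.86, 6.69, 7.32 and 7.25 and rose 23.8-fold (4.57 ± 0.23). For all 3 genes the lowest induced array lay more than 3 log2 units above the highest uninduced one.

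Next came PTPN22, a tyrosine phosphatase best known from lymphocytes (4.24 ± 0.37), and PALMD, palmdelphin (4.14 ± 0.22). C2orf66 (4.13 ± 0.30) and FAM13C (3.91 ± 0.15) followed, with BLNK, an adaptor of B cell receptor signalling (3.91 ± 0.18), between them. LCE1B rose by 3.78 ± 0.18, and ELOVL2, an elongase of polyunsaturated fatty acids, by 3.65 ± 0.30. The list of the 15 largest rises closed with NSG1 (3.30), a neuronal vesicle protein, PLEKHG1 (3.25), TP53I3, DNAI3 and CLCA2 (3.24), a membrane protein of stratified epithelia. PTPN22 was the dimmest of these, from -0.65 to 1.72 uninduced, and the widest spread among uninduced arrays was that of PTPN22, C2orf66 (1.61 to 3.57) and ELOVL2 (1.81 to 3.48). All 15 held their calls in every alternative that was run.

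**Figure D3:**
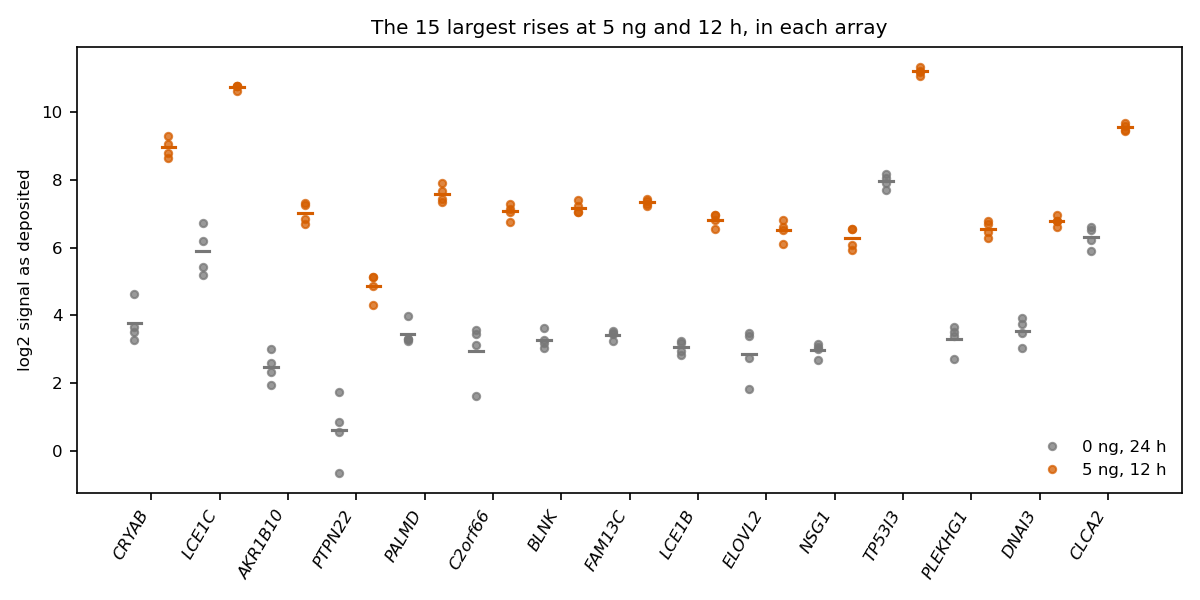
Log2 signal as deposited of the 15 genes with the largest rises past the test whose groups did not overlap, on each array of 0 ng at 24 h (grey) and 5 ng at 12 h (orange), with short lines at the means of 4 arrays. CRYAB rises from a mean of 3.77 to 8.96 and TP53I3 from 7.96 to 11.21.

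A minority of keratinocyte genes passed. The cornified envelope genes LCE1C and LCE1B rose, and FLG, filaggrin, rose 2.75-fold (1.46 ± 0.18, limma adjusted p = 1.6e-05), and these 3 rises with 0 falls were all that passed among 20 measured differentiation genes, where 3.44% of all genes rose, with a median of 0.08. KRT1 (-0.14), KRT10 (-0.25) and LORICRIN (0.04) did not pass and are given here after their values were seen. LORICRIN, DSC1, DSG1, SPRR3 and TGM3 lay in the bottom quartile of signals on all 8 arrays. After quantile normalization 8 of the 20 rose and 0 fell, where 11.5% of all genes rose. LCE1F, which is outside this list, rose 5.98-fold (2.58 ± 0.14).

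Genes of DNA synthesis fell most. CCNE2, cyclin E2, which with CDK2 drives entry into S phase, read 8.63, 8.38, 8.06 and 8.89 uninduced and 5.52, 6.43, 6.05 and 6.03 induced. All induced arrays lay at least 1 log2 unit below the uninduced ones, and CCNE2 fell 5.59-fold (-2.48 ± 0.28, limma adjusted p = 3.9e-06). POLE2, a subunit of DNA polymerase epsilon, read 7.13, 7.05, 6.66 and 7.16 against 4.53, 5.35, 4.98 and 4.83 and fell 4.22-fold (-2.08 ± 0.27, limma adjusted p = 2e-05). DTL, the receptor of a ubiquitin ligase that destroys CDT1 during S phase, read 10.02, 10.03, 9.58 and 10.30 against 7.60, 8.65, 7.98 and 7.92 and fell 3.85-fold (-1.94 ± 0.27). MCM3, part of the replicative helicase, read 9.41, 9.20, 9.12 and 9.74 against 7.15, 7.94, 7.52 and 7.47 and fell 3.60-fold (-1.85 ± 0.22). In each of these genes replicate 2 was the highest of the induced arrays.

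Among the 15 largest falls outside the S phase list were FAM111B, a nuclear protease (-2.28 ± 0.27), WDR76 (-1.97 ± 0.23), FBXO5, the inhibitor EMI1 of the anaphase-promoting complex (-1.95 ± 0.23), and UNG, the uracil-DNA glycosylase (-1.93 ± 0.22). EVI2B (-2.06 ± 0.35) and ZNF724 (-2.04) were also among them. The call of ZNF724 had an SE of 0.60 and ended without replicate 1 (-2.03) or 3 (-1.77) of 5 ng at 12 h or replicate 1 (-1.95) or 4 (-1.71) of 0 ng. The rest of the 15 were CCNE2, POLE2, DTL, MCM3 and the histone genes H3C1, H2BC14, H2AC15, H3C12 and H2AC4.

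Of 36 measured S phase genes 33 fell and 0 rose on both scales, where 11.5% of all genes fell as deposited and 14.3% after quantile normalization. For 32 of them the induced arrays all lay below the uninduced ones, as for 16.4% of all genes. The list median was -1.46 as deposited and -1.24 after quantile normalization, and the count of falls was between 31 and 33 without any 1 array. PCNA, the sliding clamp of replication and also a p53 target, read 10.96, 10.96, 10.72 and 11.27 against 10.55, 11.02, 10.86 and 10.75. Its groups overlapped and its difference of -0.18 ± 0.17 (limma adjusted p = 0.54) turned to 0.02 after quantile normalization. The other two members that did not pass, RRM1 (-0.15) and TYMS (-0.31), belong to nucleotide supply and are named after their values were seen.

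Histone genes that are transcribed while DNA is replicated were lower too. H2BC14 read 11.08, 11.38, 11.23 and 11.66 uninduced and 9.25, 10.07, 9.33 and 9.10 induced, a fall of 3.73-fold (-1.90 ± 0.24, limma adjusted p = 1.8e-05). H3C1 fell 3.92-fold (-1.97 ± 0.29). Of 42 measured replication-dependent histone genes 34 fell and 0 rose on both scales, with medians of -1.32 as deposited and -1.12 after quantile normalization, and 30 to 34 fell without any 1 array. For this list and the next, the shares of all genes were 11.5% falls and 3.44% rises as deposited. After quantile normalization they were 14.3% and 11.5%. Histone genes have near-identical copies, so signals of single members are uncertain. Recombination and Fanconi genes fell in 14 of 17, with a median of -1.02 (15 falls and 1 rise after quantile normalization), led by XRCC2 (-1.73 ± 0.24), BRCA1 (-1.56 ± 0.21), BARD1, the partner of BRCA1 (-1.5), and FANCB (-1.5).

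Upstream of these genes in the cell cycle, E2F8 (-1.52 ± 0.27) and E2F1 (-1.14 ± 0.24), transcription factors of S phase, and CDK2 (-1.27 ± 0.20), the partner of cyclin E, fell. RBL1, the RB relative p107, fell too (-1.15 ± 0.20). Of 21 measured G1 cyclins, CDK inhibitors, RB and E2F genes 9 fell and 0 rose, with a median of -0.53, and after quantile normalization 11 fell and 3 rose, with a median of -0.27. Of all genes 11.5% fell and 3.44% rose as deposited, and 14.3% fell and 11.5% rose after quantile normalization.

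The median of mitotic genes at 12 h was closer to 0 than that of replication genes. CDK1, the kinase that starts mitosis, read 8.82, 8.59, 8.21 and 9.17 uninduced and 7.73, 8.59, 8.23 and 8.35 induced, with overlapping groups and a difference of -0.47 ± 0.24 that did not pass (limma adjusted p = 0.22, -0.21 after quantile normalization). CCNB1, its cyclin, fell 1.55-fold (-0.63 ± 0.20, limma adjusted p = 0.040), which was lost on leaving out replicate 1 (-0.51), 3 (-0.63) or 4 (-0.61) of 5 ng at 12 h or replicate 1 (-0.68), 2 (-0.63) or 4 (-0.51) of 0 ng and held after quantile normalization (-0.42). MKI67, the proliferation marker Ki-67, read 9.02 to 9.66 against 8.14 to 8.97 and fell 1.89-fold (-0.92 ± 0.21, limma adjusted p = 0.0049). PLK4, the kinase of centriole duplication (-1.5 ± 0.26), AURKB, of the chromosomal passenger complex (-1.24 ± 0.19), KIF11, the kinesin of spindle bipolarity (-1.14 ± 0.25), and NUF2, of the kinetochore (-1.04 ± 0.27), had the largest falls. The call of NUF2 ended without replicate 1 of 5 ng at 12 h (-0.86) or replicate 4 of 0 ng (-0.93).

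Of 39 measured G2 and M phase genes 34 fell and 0 rose, with a median of -0.86, where 11.5% of all genes fell and 3.44% rose. The induced arrays all lay below the uninduced ones for 24 of them, and for 16.4% of all genes. The count of falls was 15 without replicate 1 of 5 ng at 12 h and 16 without replicate 4 of 0 ng. After quantile normalization 32 fell and 1 rose, with a median of -0.63, where 14.3% of all genes fell and 11.5% rose. Without replicate 1 of 5 ng at 12 h 24 fell on that scale. The 5 that did not pass as deposited, chosen here after their values were seen, were PTTG1, securin (0.11, called as a rise after quantile normalization), KIF20A (-0.12), CDK1, CENPE (-0.58) and DLGAP5 (-0.68). The mean signal of the 39 genes was 9.23, 9.19, 8.91 and 9.55 on the uninduced arrays and 8.0, 8.84, 8.41 and 8.31 on the induced ones. For the 36 S phase genes the same means were 9.10, 9.03, 8.88 and 9.43 against 7.40, 8.15, 7.77 and 7.70. The nearest arrays of the groups were thus 8.91 and 8.84 for the mitotic list and 8.88 and 8.15 for the replication list.

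**Figure D4:**
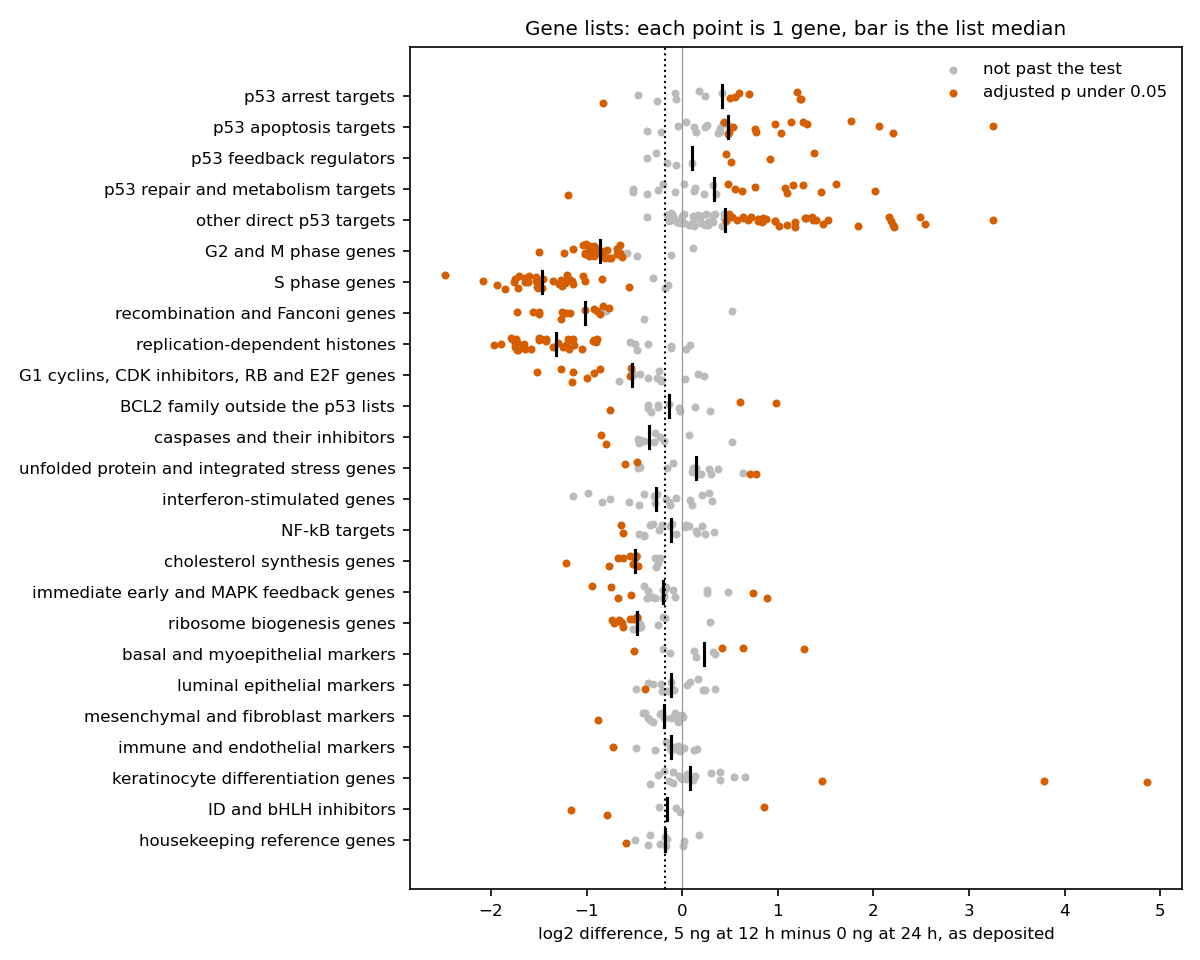
Log2 difference (5 ng at 12 h minus 0 ng at 24 h, as deposited) of every measured member of 25 gene lists, 1 point per gene, orange where the adjusted p is under 0.05, with a bar at each list's median, a grey line at 0 and a dotted line at the median of all genes (-0.18). The S phase (-1.46) and histone (-1.32) medians lie lowest, and those of the p53 apoptosis (0.48) and other direct p53 targets (0.45) highest.

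Promoter elements known from cell cycle genes were counted, and the shares are given mainly for the cell cycle lists that fell. Windows of 300 bases, from 250 before to 50 after the transcription start, were read on both strands from RefSeq for assembly GRCh38.p14, and 14239 of the measured genes had one. The CHR element TTTGAA, which the DREAM and MuvB complexes bind in late cell cycle genes, was present in 22 of 33 G2 and M phase windows (66.7%), in 1 of 33 S phase windows (3.03%) and in 11.9% of the windows of measured genes. TTTGAA was also in 11 of 37 histone windows (29.7%), 3 of 8 windows of p53 feedback regulators (37.5%) and 2 of 5 of ID and bHLH inhibitors (40%). The E2F site TTCCCGC was present in 18 of 33 S phase windows (54.5%), in 9 of 15 recombination and Fanconi windows (60%), in 2 of 33 G2 and M phase windows (6.06%) and in 8.95% of measured genes. CCAAT, the site of the factor NF-Y, was in 33 of 37 histone windows (89.2%), 24 of 33 G2 and M phase windows (72.7%), 20 of 33 S phase windows (60.6%) and 36.3% of measured genes. CCAAT was also in 12 of 14 cholesterol synthesis windows (85.7%) and 11 of 16 unfolded protein and integrated stress windows (68.8%). Among the 1770 windows of all genes that fell, the shares were 13.2% for TTTGAA, 16.8% for TTCCCGC and 41.4% for CCAAT. In all 35116 windows of the RefSeq table the shares were 15.2% for TTTGAA, 6.55% for TTCCCGC and 34.6% for CCAAT. None of these 3 motifs contains another on either strand.

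The median log2 difference of G2 and M phase genes was -0.92 for the 22 with TTTGAA and -0.84 for the 11 without, and between 12 h and 24 h at 5 ng it was -3.14 and -2.48. That of S phase genes at 12 h was -1.40 for the 18 with TTCCCGC and -1.47 for the 15 without, and between 12 h and 24 h it was -1.37 and -1.75. The consensus half-site of p53 was found in 5.94% of the windows of measured genes, in 8.43% of those of genes that rose and in 4.29% of those of genes that fell. By list it was in 2 of 21 windows of apoptosis targets (9.52%), 1 of 11 of arrest targets (9.09%), 5 of 64 of other direct targets (7.81%), 1 of 21 of repair and metabolism targets (4.76%) and 0 of 8 of feedback regulators. It was also in 5 of 33 S phase windows (15.2%), 4 of 37 histone windows (10.8%) and 1 of 33 G2 and M phase windows (3.03%). A match describes letters in these windows and not a bound site, and sites outside the windows were not counted.

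The upstream 250 bases of 4 genes are printed 5′ to 3′ on the gene's strand to show how the early and the late element lie, with the element in capitals. DTL and MCM3 stand for replication and KIF11 and KIF23 for mitosis. They were chosen after their values were seen, from genes of each list with large falls that hold the element upstream of the start. Not all genes of the lists were open to this choice, so genes with larger falls may hold the element too. DTL lies at chr1:212035498-212035747 (plus strand), and its TTCCCGC begins 108 bases before the start. MCM3 lies at chr6:52284743-52284992 (minus strand), with the element 173 bases before the start as written and another 23 bases before it on the other strand, where it reads GCGGGAA. KIF11 lies at chr10:92592880-92593129 (plus strand), with TTTGAA 28 bases before the start on the other strand, written TTCAAA. KIF23, a kinesin of the central spindle that fell by 1.02 on the log2 scale, lies at chr15:69414099-69414348 (plus strand), with TTTGAA 55 bases before the start.
DTL: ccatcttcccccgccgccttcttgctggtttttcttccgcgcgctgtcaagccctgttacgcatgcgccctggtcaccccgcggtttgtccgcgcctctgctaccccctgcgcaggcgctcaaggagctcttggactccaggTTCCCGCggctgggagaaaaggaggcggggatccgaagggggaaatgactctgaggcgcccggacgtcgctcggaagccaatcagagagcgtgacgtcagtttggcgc
MCM3: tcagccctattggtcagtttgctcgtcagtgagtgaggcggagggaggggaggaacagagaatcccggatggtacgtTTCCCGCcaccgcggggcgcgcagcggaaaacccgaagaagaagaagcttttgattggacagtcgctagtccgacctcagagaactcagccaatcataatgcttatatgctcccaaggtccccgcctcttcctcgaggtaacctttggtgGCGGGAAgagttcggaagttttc
KIF11: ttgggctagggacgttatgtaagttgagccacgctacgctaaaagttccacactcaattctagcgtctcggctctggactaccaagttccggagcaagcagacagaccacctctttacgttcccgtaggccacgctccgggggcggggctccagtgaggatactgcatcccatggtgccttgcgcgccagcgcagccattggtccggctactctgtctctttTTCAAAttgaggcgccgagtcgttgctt
KIF23: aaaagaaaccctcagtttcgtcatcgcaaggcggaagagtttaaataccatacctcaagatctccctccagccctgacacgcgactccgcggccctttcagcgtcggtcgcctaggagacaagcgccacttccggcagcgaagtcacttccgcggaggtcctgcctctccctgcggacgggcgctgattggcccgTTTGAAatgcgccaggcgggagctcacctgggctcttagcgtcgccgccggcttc

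Cholesterol synthesis genes were lower as a group. INSIG1, which holds the sterol sensor in the endoplasmic reticulum and is itself induced by SREBP, read 7.45 to 8.18 uninduced and 6.28 to 6.73 induced and fell 2.32-fold (-1.22 ± 0.18, limma adjusted p = 9.6e-05). DHCR7, of the last step of the pathway (-0.77), CYP51A1 (-0.67) and FDPS (-0.62) fell too. Of 15 measured members 9 fell and 0 rose on both scales, where 11.5% of all genes fell as deposited and 14.3% after quantile normalization. The list medians were -0.49 as deposited and -0.27 after quantile normalization. The count was 4 in a fit to the 8 arrays alone, 4 without replicate 1 and 5 without replicate 4 of 5 ng at 12 h, and 3 without replicate 4 of 0 ng, which ended the calls of CYP51A1 (-0.54) and FDPS (-0.53). CYP51A1 also lost its call without replicate 1 of 5 ng at 12 h (-0.62).

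Ribosome biogenesis genes fell in 10 of 21, with a median of -0.47, and in 14 with 1 rise after quantile normalization. Of all genes 11.5% fell as deposited and 14.3% after quantile normalization. DKC1, of the pseudouridine synthase complex (-0.73), NOLC1 (-0.71), BOP1 (-0.66) and UTP20 (-0.64) had the largest falls. The count was 5 in a fit to the 8 arrays alone, and 2 without replicate 1 of 5 ng at 12 h and also without replicate 4 of 0 ng. Either omission ended the calls of DKC1 (-0.64 and -0.61), NOLC1 (-0.59 and -0.61) and UTP20 (-0.56 and -0.53).

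A minority of growth factor feedback genes passed, in both directions. DUSP6, the phosphatase of ERK (-0.94 ± 0.16), and ETV5, a transcription factor downstream of ERK (-0.74 ± 0.14), fell, while EGR1, an immediate early factor (0.89 ± 0.13), and SPRY1, an inhibitor of receptor tyrosine kinase signalling (0.74 ± 0.15), rose. Of 21 members 2 rose and 4 fell as deposited, and 6 rose and 4 fell after quantile normalization. Of all genes 3.44% rose and 11.5% fell as deposited, and 11.5% rose and 14.3% fell after quantile normalization. ID1, an inhibitor of bHLH factors, fell 2.24-fold (-1.16 ± 0.21), and its relative ID2 rose 1.80-fold (0.85 ± 0.24). The call of ID2 ended without replicate 1 (0.81) or 4 (0.77) of 5 ng at 12 h or replicate 1 of 0 ng (0.68). HEY1, a Notch target, fell by 0.79 on the log2 scale, but was not called without replicate 1 of 5 ng at 12 h (-0.66) or replicate 1 (-0.75) or 4 (-0.67) of 0 ng.

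A minority of other death and stress genes passed as deposited. In the BCL2 family outside the p53 lists, BAK1, an effector like BAX, read 8.21 to 8.31 uninduced and 9.10 to 9.38 induced and rose 1.97-fold (0.98 ± 0.13, limma adjusted p = 2.8e-05). BCL2L12 fell (-0.76) and BCL2A1, an anti-apoptotic member, rose (0.60), which was lost on leaving out replicate 3 (0.54) or 4 (0.52) of 5 ng at 12 h or replicate 1 (0.55) or 2 (0.53) of 0 ng. The counts as deposited were 2 rises and 1 fall of 13, where 3.44% of all genes rose and 11.5% fell. The list median was -0.14 as deposited and 0.08 after quantile normalization. Among 12 caspases and their inhibitors 0 rose and 2 fell, CASP2 (-0.85) and the adaptor FADD (-0.80), a share of falls near the 11.5% of all genes. After quantile normalization 1 rose and 2 fell, where 11.5% of all genes rose and 14.3% fell.

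In the unfolded protein and integrated stress list 2 of 17 rose, CHAC1 (0.77), which degrades glutathione, and HERPUD1 (0.71), of endoplasmic reticulum degradation, and 2 fell, TRIB3 (-0.60) and ATF4 (-0.47), where 3.44% of all genes rose and 11.5% fell, so the share of falls was near that of all genes. The call of ATF4 ended without any 1 array but replicate 2 of 5 ng at 12 h and replicate 3 of 0 ng (-0.36 to -0.50). After quantile normalization 10 of the 17 rose and 3 fell, where 11.5% of all genes rose and 14.3% fell. The list median was then 0.36, against -0.02 for all genes, and 9 to 11 rose with 1 array left out as well. NF-kB targets had 0 rises and 2 falls of 21, the neutrophil chemokines CXCL1 (-0.64) and CXCL8 (-0.62), which is below the 11.5% of all genes that fell, and 6 rises and 3 falls after quantile normalization. CXCL1 lost its call without replicate 1 of 5 ng at 12 h (-0.54) or replicate 4 of 0 ng (-0.53), and CXCL8 without these (-0.53 and -0.50) or replicate 1 of 0 ng (-0.62). On either scale limma called 0 of 20 interferon-stimulated genes, with a median of -0.27 as deposited, although 5115 of all genes had an unadjusted p under 0.05. With the replicate number as a block 5 of the 20 fell. The mean signal of these genes was highest on replicate 1 in each of the 5 groups on both scales, at 7.76 uninduced and 6.96 at 5 ng and 12 h as deposited, where the other arrays read 6.32 to 7.11 and 6.25 to 6.71.

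Most markers of epithelial and other cell types did not pass. As deposited 3.44% of all genes rose and 11.5% fell, and after quantile normalization 11.5% rose and 14.3% fell. The single falls as deposited in the luminal, mesenchymal, immune and endothelial, and housekeeping lists were below the share of all genes that fell. Of 10 basal and myoepithelial markers 3 rose, MYLK (1.27 ± 0.18) and ACTA2 (0.64 ± 0.16), of the contractile apparatus, and KRT5 (0.42 ± 0.13), and ITGB4 fell (-0.50 ± 0.13). The call of KRT5 ended without replicate 2 (0.36), 3 (0.42) or 4 (0.42) of 5 ng at 12 h or replicate 1 (0.41), 2 (0.39) or 3 (0.39) of 0 ng, and that of ITGB4 without replicate 4 of 5 ng at 12 h (-0.43) and after quantile normalization (-0.27). In the luminal list 1 of 16 fell, KRT7 (-0.39), a call that also ended after quantile normalization (-0.19) and without replicate 1 (-0.36), 3 (-0.37) or 4 (-0.39) of 5 ng at 12 h or replicate 1 (-0.41) or 4 (-0.31) of 0 ng. CDH2, N-cadherin, fell (-0.88 ± 0.18) as the single call among 17 mesenchymal markers. CD14 fell (-0.72 ± 0.23) as the single call among 13 immune and endothelial markers, and the call ended without any 1 array other than replicate 2 of 0 ng (-0.64 to -0.76). Of 11 housekeeping genes TBP fell (-0.59), which did not pass on leaving out replicate 1 of 5 ng at 12 h (-0.48) or replicate 1 (-0.58) or 4 (-0.48) of 0 ng, and 2 rose and 2 fell after quantile normalization.

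The difference between the doses at 12 h was taken between the arrays of 5 ng and 3 ng, with no uninduced array in either mean. Its spread was estimated from all 20 arrays, the uninduced ones included. As deposited 4 genes (0.0217%) were higher at 5 ng and 0 were lower, while 1082 had an unadjusted p under 0.05. LCE1F was 1.01 ± 0.14 higher on the log2 scale (limma adjusted p = 0.014), and PALMD (1.34), ARRB1, a beta-arrestin (0.90), and FRMD8, a partner of iRhom proteins (0.80), each had a limma adjusted p of 0.037. All 4 calls ended when the fit held the 8 arrays alone. Leaving out any 1 array except replicate 4 of 3 ng left 0 to 3 calls, and leaving out that array gave 11.

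After quantile normalization 506 genes (2.75%) differed between the doses at 12 h, 428 of them higher at 5 ng (2.32%) and 78 lower (0.424%). TP53I3 (0.50), APAF1 (0.50), SFN (0.37), SESN1 (0.34) and CDKN1A (0.29) were then among the genes higher at 5 ng, with deposited differences of 0.53, 0.48, 0.39, 0.32 and 0.28 that did not pass. By class, 2 of 15 arrest, 8 of 28 apoptosis and 13 of 72 other direct targets were higher, and 12 of 36 S phase genes and 9 of 42 histones were lower, with 0 in the opposite direction. G2 and M phase genes had 0 calls between the doses at 12 h in limma on either scale, with a median of -0.31 as deposited and -0.29 after quantile normalization.

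The difference between 24 h and 12 h at 5 ng was tested on arrays that share the 12 h group with the early comparison, so both sets of values are given side by side and not correlated. At 24 h 731 genes (3.97%) differed from 12 h, 78 of them higher (0.424%) and 653 lower (3.55%), and after quantile normalization 1986 were higher (10.8%) and 1400 lower (7.6%). The share of rises thus went from 10.7% as deposited to 58.7%, and to 45.3% with centring, and the median of all genes was -0.08, 0.07 and 0.08 on the 3 scales. The count of rises was 45, 32 and 46 without replicate 1, 2 or 3 of 5 ng at 12 h, and 43, 47, 39 and 36 without replicates 1 to 4 of 5 ng at 24 h.

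Mitotic genes fell further between 12 h and 24 h. Of 39 G2 and M phase genes 38 fell from 12 h to 24 h, with a median of -2.96 (39 and -2.79 after quantile normalization), against a median of -0.86 up to 12 h. Between these times 3.55% of all genes fell as deposited and 7.6% after quantile normalization. The single exception as deposited was PTTG1 (-0.37). CDK1 fell by 3.41 on the log2 scale (limma adjusted p = 7.2e-09) after a difference of -0.47 at 12 h, the difference of CCNB1 was -3.0 after -0.63 and that of MKI67 -3.16 after -0.92. The 6 largest falls were KIF14 (-3.87), ASPM (-3.72), TTK (-3.70), DEPDC1 (-3.67), KIF11 (-3.62) and NUF2 (-3.61), genes of the spindle, the kinetochore and cytokinesis apart from DEPDC1. The mean signal of the 39 genes was 5.48, 5.77, 5.54 and 5.58 on the 4 arrays at 24 h, below every array at 12 h.

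Replication genes also fell further. Of 36 S phase genes 32 fell again between 12 h and 24 h, with a median of -1.57 as deposited (35 and -1.39 after quantile normalization) beside -1.46 at 12 h. The differences were -1.63 after -2.48 for CCNE2, -2.12 after -2.08 for POLE2, -2.33 after -1.94 for DTL and -1.25 after -1.85 for MCM3. Histones fell in 27 of 42, with a median of -1.46, H2BC14 among them (-3.19 after -1.90). Beside both lists, 3.55% of all genes fell as deposited and 7.6% after quantile normalization. PCNA differed by -0.59 (limma adjusted p = 0.051).

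**Figure D5:**
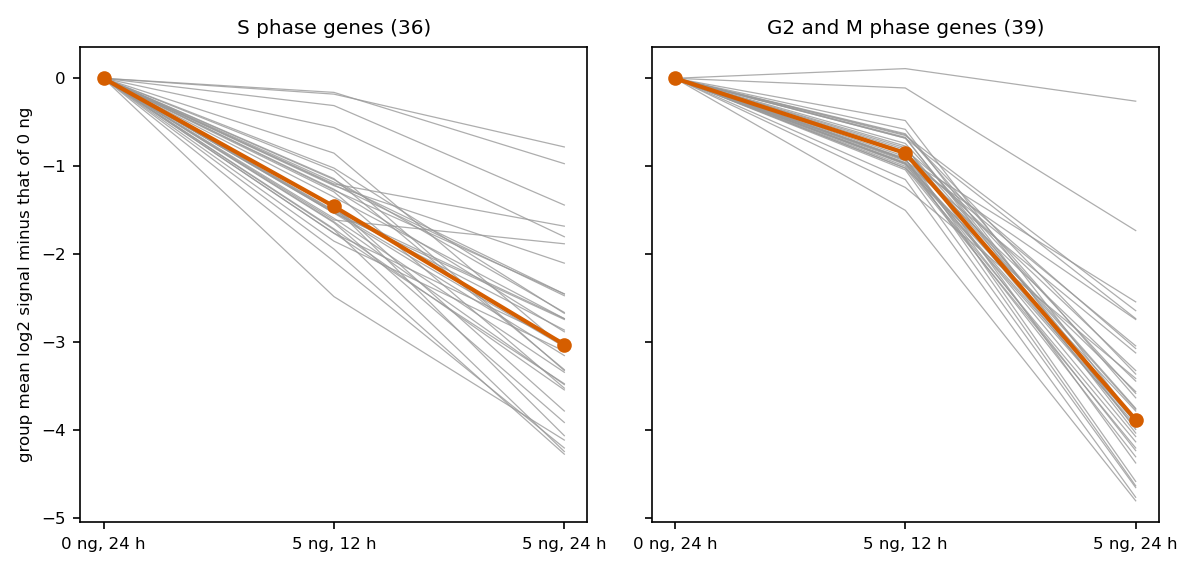
Group mean log2 signal minus that of 0 ng at 24 h, as deposited, in uninduced cells, at 5 ng and 12 h and at 5 ng and 24 h, for the 36 S phase genes (left) and 39 G2 and M phase genes (right), with 1 grey line per gene and the list median in orange. The S phase median is -1.46 at 12 h, and the G2 and M phase median is -0.86 there and lies below the S phase median at 24 h.

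The p53 target lists had 2 rises and 2 falls between the times as deposited. Between 12 h and 24 h at 5 ng, 0 of 28 apoptosis, 0 of 24 repair and metabolism and 0 of 9 feedback genes passed in limma as deposited, where 2235 of all genes had an unadjusted p under 0.05. After quantile normalization 6 and 2, 9 and 1, and 1 and 1 of these rose and fell, where 10.8% of all genes rose and 7.6% fell. Of the 72 other direct targets 2 rose and 0 fell as deposited, where 0.424% of all genes rose, and 8 rose with centring and 17 rose and 1 fell after quantile normalization. CDKN1A differed by 0.20 (95% interval -0.10 to 0.49), TP53I3 by 0.28 and SESN1 by -0.22, none past the test as deposited, and after quantile normalization CDKN1A (0.25) and TP53I3 (0.33) rose. APAF1 differed by -0.37 and fell after quantile normalization (-0.26). In the arrest list 0 rose and 2 fell as deposited, where 3.55% of all genes fell. These were GTSE1 (-1.82) and E2F7 (-0.73), the latter a repressor of E2F targets named after its value was seen.

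Of the 15 largest early rises 4 were called as further rises between 12 h and 24 h, CRYAB, LCE1C, LCE1B and CLCA2, and 10 were not called, among them AKR1B10 (-0.03), PTPN22 (-0.35), PALMD (0.36) and C2orf66 (-0.16). CRYAB rose by a further 1.36 (limma adjusted p = 0.0018), LCE1C by 0.92, LCE1B by 0.87, LCE1F by 1.18 and CLCA2 by 0.84. The largest rises of the interval were those of LINC00324, a long noncoding RNA (1.68), and CCL3, a chemokine (1.5), which had risen by 1.26 and 1.66 by 12 h. SPINK6, a kallikrein inhibitor (1.40 after 1.49), and KRT34, a hair keratin (1.21 after 1.49), followed. ELOVL2 went the other way and fell by 1.08 (limma adjusted p = 0.042) after its rise of 3.65.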

How the data were processed

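The deposited values are log2 signals, 1 per transcript cluster and array, from biotin-labelled total RNA on Affymetrix arrays. The submitters' processing notes list limma, GCRMA, GCOS and Affymetrix Power Tools with no version or order, and the scaling step between arrays is not stated in the sources used here. The platform annotation gave 1 gene symbol for 19460 of 33297 clusters and several for 1754, and did not list 12083. By Entrez identifier 19429 of the 19460 matched current records, and 0 symbols changed. The brightest cluster stood for each of the 769 genes with more than 1, and 18417 genes were tested with no filter.

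The model in limma 3.58.1 (R 4.3.3) held 1 mean per group over the 5 groups and 20 arrays (15 residual degrees of freedom, eBayes). A gene was called when its p, adjusted by Benjamini-Hochberg over all genes, was under 0.05. Values are log2 differences ± SE. Simulated log2 changes of 1 and 2 in the early comparison were recovered for 68 and 99 of 100 genes each, with 6 false among 173 calls over 18417 genes. The simulated noise was independent between genes, with no shift of whole arrays. These rates therefore do not cover the differences in brightness between the real arrays. Genes are named by rule: the panel, the 15 largest rises and falls with groups that did not overlap, up to 4 called members of each of 25 lists with the largest change, and the 6 largest values of each sign in the other 2 comparisons. The members, lists and tests were chosen with earlier results of these data known. Alternatives were quantile normalization, centring, a fit to only the 8 arrays compared, a replicate block, 12891 genes left after the dimmest 30% were removed, means over a gene's clusters, trend and robust eBayes, each array left out, and, chosen after seeing the data, quantile normalization with each array left out. Promoter sequences are from RefSeq on GRCh38.p14.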

Additional observations from a re-analysis of the deposited data

Results flagged for a closer look

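In the early comparison 234 groups of 4 arrays, those of the named genes, were searched for an array far from the rest (a gap to the nearest array over 0.829 of the group's range), and 10 had one, where chance gives about 1 in 20. The lowest array at 5 ng and 12 h stood apart for SESN1 (8.87, the next at 9.11), LCE1C (10.62, next 10.78), EGR1 (8.90, next 9.08), BOP1 (8.34, next 8.71), UTP20 (7.07, next 7.36) and ID1 (6.59, next 7.13). The highest uninduced array stood apart for PALMD (3.98, next 3.31), SPRY1 (6.45, next 6.24) and KRT5 (12.0, next 11.7), and the lowest for ABHD4 (6.30, next 6.70).

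Between the doses at 12 h the difference itself was called by limma for 4 genes, with log2 differences of 1.34 for PALMD, 1.01 for LCE1F, 0.90 for ARRB1 and 0.80 for FRMD8. Between 24 h and 12 h at 5 ng it was called for 731 genes. The largest falls were those of KIF14 (-3.87), ASPM (-3.72), TTK (-3.70), DEPDC1 (-3.67), KIF11 (-3.62) and NUF2 (-3.61), and the largest rises those of LINC00324 (1.68), CCL3 (1.5), SPINK6 (1.40), CRYAB (1.36), KRT34 (1.21) and LCE1F (1.18).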

How the results depend on the processing

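The 2750 calls of the early comparison became 4742 after quantile normalization, which raises the rises from 633 to 2110 and the falls from 2117 to 2632, and stood between 1510 and 3086 with 1 array left out (4076 to 4748 with quantile normalization as well, at 4136 without replicate 1 of 5 ng and 4322, 4161 and 4620 without replicates 1, 2 and 3 of 0 ng). The other alternatives left the count within 1.5 times of 2750. The 4 calls between the doses at 12 h became 506 after quantile normalization, 206 with centring, 0 with only the 8 arrays compared, 2 with a replicate block, 23 without the dimmest genes, 32 with trend and robust eBayes, and 0 to 11 with 1 array left out. The 731 calls between the times at 5 ng became 3386 after quantile normalization and 1246 with centring, and 506 to 811 with 1 array left out. The labels do not say that a replicate number marks a shared source, and deviations of same-numbered arrays of 5 ng at 12 h and 0 ng correlated at 0.113, 0.056, 0.258 and -0.108 (0.083, 0.017, 0.084 and 0.038 after quantile normalization), not all above 0.1, so the arrays were not treated as paired. Replicates 1 and 3 of 5 ng correlated best with their own number and replicates 2 and 4 with another. The interferon-stimulated genes, highest on replicate 1 in all 5 groups, are a hint from the data that the numbers are shared in part. With the replicate block 3044 genes were called in the early comparison and 816 between the times. Of 2672 pairs of a named gene and an alternative, 2470 kept their direction and their side of the threshold, 159 lost the call, 34 gained it and 9 reversed. The reversals were BBC3 without replicate 4 of 5 ng at 12 h (-0.08) or replicate 1 of 0 ng (-0.02), within a range of -0.08 to 0.17 with 1 array left out, and PCNA after quantile normalization (0.02, and 0.02, 0.04 or 0.05 with an array left out as well). Where no other reason is named, the cause of a changed count was not tested. Signal over background is unknown for these values, so the reliability of dim genes was judged only through the spread between arrays.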
